A study of Mus musculus with 9 samples.

Results

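The V(D)J recombination genes described here are 10 genes whose rows were taken by symbol from the raw and normalised tables: Rag1, Rag2, Dntt, Xrcc4, Xrcc5, Xrcc6, Lig4, Prkdc, Dclre1c and Nhej1. They are 10 of 23279 gene rows, and all 10 were among the 10878 genes expressed well enough to be tested, with a mean raw level of at least 1 FPKM over the libraries. FPKM count the fragments of a transcript divided by its length and by the size of the library. RNA was sequenced from mouse bone marrow cultures in 3 groups of 3 libraries. Ts1Rhr mice carry an extra copy of the chromosome 16 segment from Cbr1 to Fam3b, on an FVB x C57BL/6 F1 background. HMGN1_OE mice overexpress Hmgn1, a nucleosome-binding protein gene of that segment, on C57BL/6. The WT group is made of wild-type littermates, for which the sources used here name no background. They do not name the promoter that drives the overexpression either. The cell type label reads proB_Ts1Rhr in all groups, and groups were taken from the genotype labels. Strain and genotype cannot be told apart between Ts1Rhr and HMGN1_OE, nor in the comparisons with WT. All mice were aged 6 to 8 weeks, and all groups were grown alike: red cells were lysed, marrow was plated in methylcellulose with interleukin-7, and colonies were pooled after 7 days, so a library holds many clones and any other cell that survived. The labels number the libraries as biological replicates without naming animals, so a p-value here measures only the spread among these libraries, which may be partly technical.

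V(D)J recombination builds the variable part of antibody genes in developing B cells. The RAG1 and RAG2 proteins form the recombinase, which cuts DNA beside gene segments and leaves hairpin ends. The hairpins are opened by Artemis, the product of Dclre1c, with the DNA-dependent protein kinase, the ends are held by the Ku proteins, and the ligase IV complex seals them. Terminal transferase, the product of Dntt, adds nucleotides without a template at the junction. Rag1, Rag2 and Dntt are switched on in lymphoid precursors only, whereas the end-joining genes work in every cell that repairs a double-strand break.

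Rag1, Rag2 and Dntt are the members made in lymphoid cells alone, so their promoters are shown. Each line gives the 250 bases before the transcript start, 5′ to 3′ on the gene's own strand, from the RefSeq promoter table on GRCm38.p6. Capitals mark E-boxes (CANNTG, the site of E2A-type factors) and the Ikaros core GGGAA.
Rag1, chr2:101649533-101649782, minus strand: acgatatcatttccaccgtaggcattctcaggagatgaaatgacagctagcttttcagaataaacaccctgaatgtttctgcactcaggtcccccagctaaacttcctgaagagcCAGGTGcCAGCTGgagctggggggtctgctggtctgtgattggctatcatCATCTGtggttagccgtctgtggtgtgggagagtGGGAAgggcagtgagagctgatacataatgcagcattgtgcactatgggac
Rag2, chr2:101624462-101624711, plus strand: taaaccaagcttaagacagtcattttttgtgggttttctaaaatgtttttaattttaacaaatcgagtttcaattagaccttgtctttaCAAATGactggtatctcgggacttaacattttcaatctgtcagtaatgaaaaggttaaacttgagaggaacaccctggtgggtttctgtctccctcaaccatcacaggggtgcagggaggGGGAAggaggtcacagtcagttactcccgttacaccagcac
Dntt, chr19:41029025-41029274, plus strand: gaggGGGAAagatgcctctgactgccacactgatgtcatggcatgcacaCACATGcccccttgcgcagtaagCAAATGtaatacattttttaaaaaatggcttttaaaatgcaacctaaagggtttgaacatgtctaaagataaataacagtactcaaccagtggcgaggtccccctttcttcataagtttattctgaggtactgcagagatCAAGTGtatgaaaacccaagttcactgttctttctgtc
Rag1 held 3 E-boxes, which begin 135, 128 and 85 bases before the start. Rag2 held 1 at 161 bases, and Dntt held 3 at 201, 178 and 38 bases. The Ikaros core GGGAA stood once in each, at 51, 41 and 246 bases for Rag1, Rag2 and Dntt. Of 32851 promoter windows of the same length, 66.2% held CANNTG and 56.2% held GGGAA on either strand, so both are common motifs. GGAA, the core bound by ETS factors such as Erg, lies inside GGGAA and was found in 93.5% of windows. The FOXO site GTAAACA (3.17% of windows) and the palindromic EBF motif (0.779%) were in none of these promoters. Of the 10 genes, 9 had a window in the table. Rag1 and Rag2 are neighbours on chromosome 2 with opposite strands, and no annotated gene lies wholly between them. None of the 10 lies in the triplicated segment, although Prkdc is on the same chromosome.

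The libraries held transcripts of B cell precursors and, at high summed levels, of myeloid cells. Sums of marker FPKM do not measure shares of cells. All 11 B lineage markers, among them Cd79a, Pax5 and Ebf1, were expressed, with a summed raw level of 1815 to 2442 FPKM in Ts1Rhr, 2185 to 2985 in HMGN1_OE and 1672 to 2114 in WT. The 23 myeloid markers summed to 14762 to 17041 raw FPKM in Ts1Rhr, 13224 to 27722 in HMGN1_OE and 22638 to 34261 in WT. Of 13 T and NK cell markers, 11, including Cd3d, Cd3e and Cd4, had a mean under 1 raw FPKM, as had all 5 erythroid markers. The Hmgn1 row stood at 125 to 127 raw FPKM in Ts1Rhr, 71.9 to 77.2 in HMGN1_OE and 58.5 to 67.3 in WT. Whether this row counts all of the overexpressed product was not tested. Of the libraries, 4 stood apart. WT replicate 1 had 10510 raw FPKM of the ribosomal RNA row Rn45s, and Ts1Rhr replicate 3 had 41.8 raw FPKM of the Y-linked gene Ddx3y, which was at most 0.0642 in any other library. Xist, which female cells make, stood at 0.443 raw FPKM in Ts1Rhr replicate 3 and at 94.2 to 193 in the others. By these rows Ts1Rhr replicate 3 was male and the others female. On the spike-in rows HMGN1_OE replicate 2 deviated by -0.39 and WT replicate 3 by 0.35 on the log2 scale, the lowest and the highest of the 9. After normalisation their median gene stood at 4.09 and 3.39 (log2 FPKM), again the 2 extremes, which bears on HMGN1_OE against WT. Levels below are normalised FPKM unless raw FPKM is named, given for replicates 1, 2 and 3 in that order. FPKM carry no read counts, so the sequencing depth is unknown. In bulk cultures, fewer B lineage cells and less RNA per such cell cannot be told apart.

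In Ts1Rhr cultures Rag2 and Dntt stood at 1.97 to 2.50 times the WT level, depending on the gene and the table, while the Rag1 libraries lay within the WT range. In the raw table both Rag2 and Dntt rose, and in the normalised table both missed the threshold of 0.05 (limma on log2 values, adjusted over all 10878 genes). Folds and ratios between groups come from this fit of log2 values and can differ from the ratio of the printed means. In HMGN1_OE cultures Dntt and Rag2 were again the members with the largest fold changes against WT, and neither passed the threshold in either table. Of the 7 end-joining genes none was called in any comparison. As a count, 0 of 10 members were called in Ts1Rhr against WT on normalised values, where 0.57% of all tested genes were, and 2 of 10 on raw values, where 8.85% were. In HMGN1_OE against WT 0 of 10 were called, beside 0.0919% of all genes on normalised and 0.0368% on raw values. Taken without adjustment, 6 of 10 had a p under 0.05 in Ts1Rhr against WT (19.5% of all genes did) and 4 of 10 in HMGN1_OE against WT (11.7%). The log2 fold change was above 0 for 9 of 10 in Ts1Rhr (59.9% of all genes) and for 10 of 10 in HMGN1_OE (72.7%). The median log2 fold change of the 10 was 0.68 in Ts1Rhr and 0.49 in HMGN1_OE, both against WT. The median of all tested genes was 0.12 and 0.21 on normalised values and 0.01 in each on raw values, where the members' medians were 0.53 and 0.29.

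**Figure D1:**
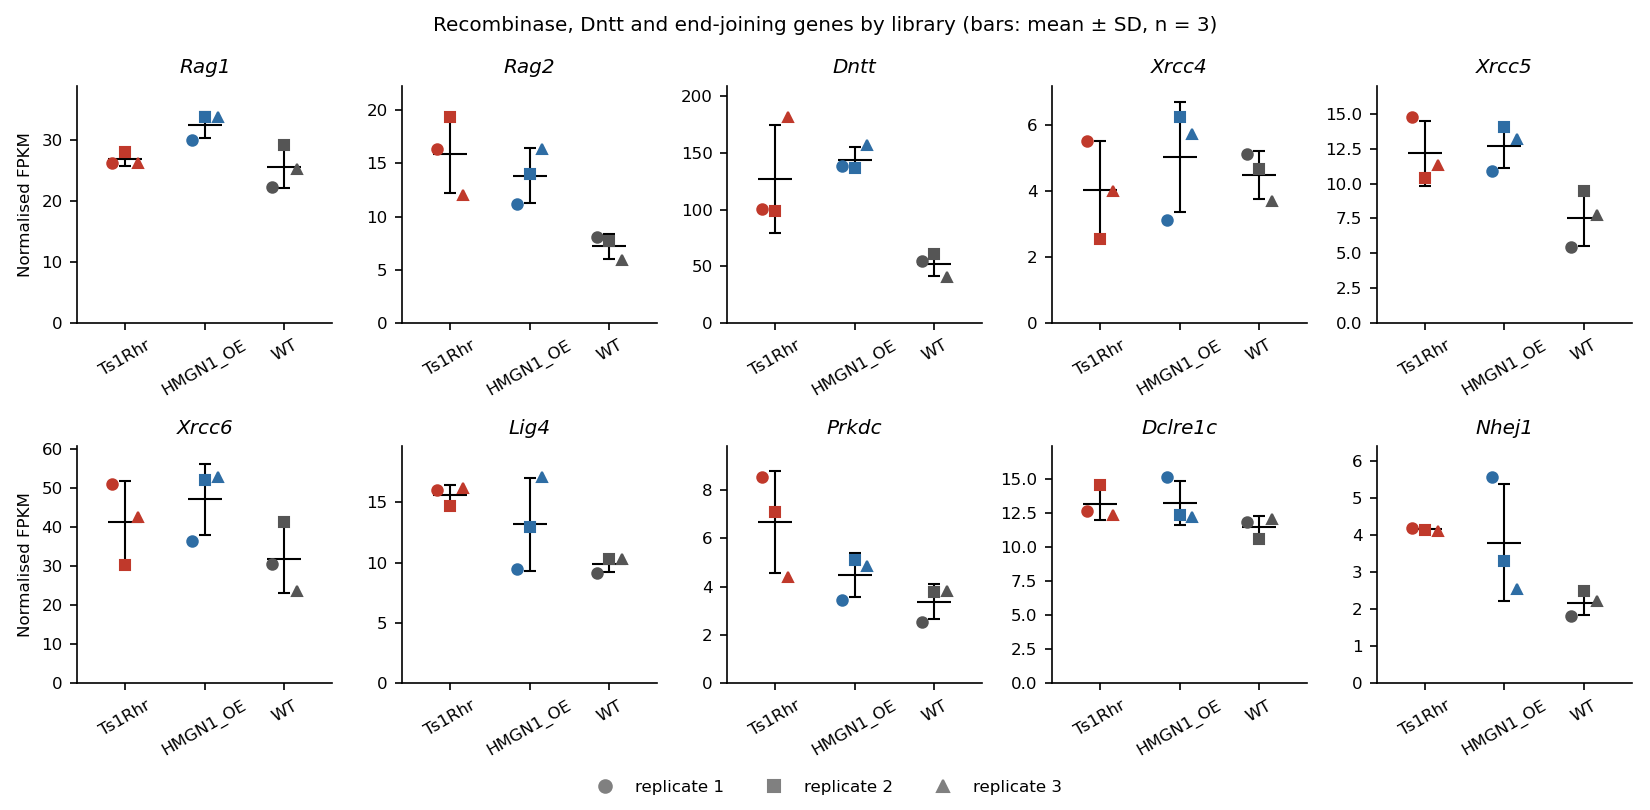
Normalised FPKM of the 10 genes in each library, 1 panel per gene, with replicates 1, 2 and 3 as circles, squares and triangles and the mean ± SD (n = 3) as bars, on axes that start at 0. For Rag2 and Dntt every Ts1Rhr and HMGN1_OE library sits above every WT library, whereas the Rag1 points of Ts1Rhr lie among those of WT.

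Rag1, the subunit that carries the catalytic site of the recombinase, had 26.2, 28.1 and 26.2 FPKM in Ts1Rhr, 30.02, 33.7 and 33.8 in HMGN1_OE, and 22.3, 29.3 and 25.3 in WT. The Ts1Rhr libraries lay within the WT range, and the HMGN1_OE libraries just above it. Ts1Rhr and HMGN1_OE did not overlap. The mean was 26.8 ± 1.08 in Ts1Rhr and 25.6 ± 3.51 in WT (SD, n = 3 each), a log2 fold change of 0.08 ± 0.22 (SE; adjusted p = 0.878). That is below the 0.12 of the median gene, and with all libraries shifted to a common median the value was -0.06. In HMGN1_OE the mean was 32.5 ± 2.14, 0.35 above WT on the log2 scale (adjusted p = 0.537). On raw values that difference was 0.16 and the groups overlapped. The 95% interval of the Ts1Rhr to WT ratio ran from 0.765 to 1.45.

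Rag2, the partner subunit that binds modified histone tails, had 16.4, 19.4 and 12.0 FPKM in Ts1Rhr, 11.2, 14.0 and 16.4 in HMGN1_OE, and 8.09, 7.67 and 5.90 in WT. All 6 mutant libraries lay above all 3 WT libraries, and the Ts1Rhr and HMGN1_OE ranges overlapped. The mean was 15.9 ± 3.71 in Ts1Rhr and 7.22 ± 1.16 in WT, 2.18-fold (95% interval 1.502 to 3.17, limma, adjusted p = 0.0565). In the raw table the means were 15.4 ± 3.29 in Ts1Rhr and 7.65 ± 0.537 in WT, and Rag2 rose 1.97-fold (adjusted p = 0.0309). In HMGN1_OE the mean was 13.9 ± 2.61, with a fitted ratio to WT of 1.91 (1.32 to 2.78, adjusted p = 0.250), or 1.65 on raw values (adjusted p = 0.257). The raw call did not survive leaving out Ts1Rhr replicate 2 (log2 fold change 0.81, adjusted p = 0.106), Ts1Rhr replicate 3 (1.08, 0.0767), WT replicate 1 (1.00, 0.133) or WT replicate 3 (0.92, 0.0919). On normalised values Rag2 passed the threshold when HMGN1_OE replicate 1 or 2 was left out of the shared estimate of the spread (adjusted p = 0.0363 and 0.0465).

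The annotated gene B230118H07Rik has exons that overlap Rag1 on the same strand and Rag2 on the other. The sources do not say whether reads were counted by strand, so fragments from the overlap cannot be told apart. Its level was 10.4 ± 1.86 FPKM in Ts1Rhr, 11.6 ± 3.63 in HMGN1_OE and 9.63 ± 2.597 in WT, and the groups overlapped. Its raw log2 fold change in Ts1Rhr against WT was -0.01 (limma, adjusted p = 0.974), beside 0.98 for Rag2.

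The 2 subunits work in 1 complex, and their ratio within a library is free of any factor common to all genes of that library. The ratio still differed between normalised and raw values, at 2.75 and 2.52 for Rag1 over Rag2 in WT replicate 1. Rag1 stood at 1.60, 1.45 and 2.19 times Rag2 in Ts1Rhr, at 2.69, 2.41 and 2.06 times in HMGN1_OE, and at 2.75, 3.81 and 4.29 times in WT. Each Ts1Rhr and each HMGN1_OE ratio was below each WT ratio. The mean log2 ratio was 0.78 ± 0.31 in Ts1Rhr and 1.83 ± 0.33 in WT, a difference of -1.05 ± 0.26 (SE). The exact two-sided permutation test gave p = 0.1, the smallest that 3 libraries against 3 allow (0.15 adjusted over the 3 ratios examined), so this test could not pass the threshold for any ratio. In HMGN1_OE the difference from WT was -0.59 ± 0.22 (exact permutation p = 0.1). On raw values it was -0.95 in Ts1Rhr, with no overlap, and -0.56 in HMGN1_OE, where the groups overlapped (exact permutation p = 0.2). Ts1Rhr and HMGN1_OE differed by -0.46 with overlapping libraries (exact permutation p = 0.2). Leaving out any 1 library kept the difference from WT between -1.24 and -0.92 in Ts1Rhr and between -0.77 and -0.45 in HMGN1_OE.

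**Figure D2:**
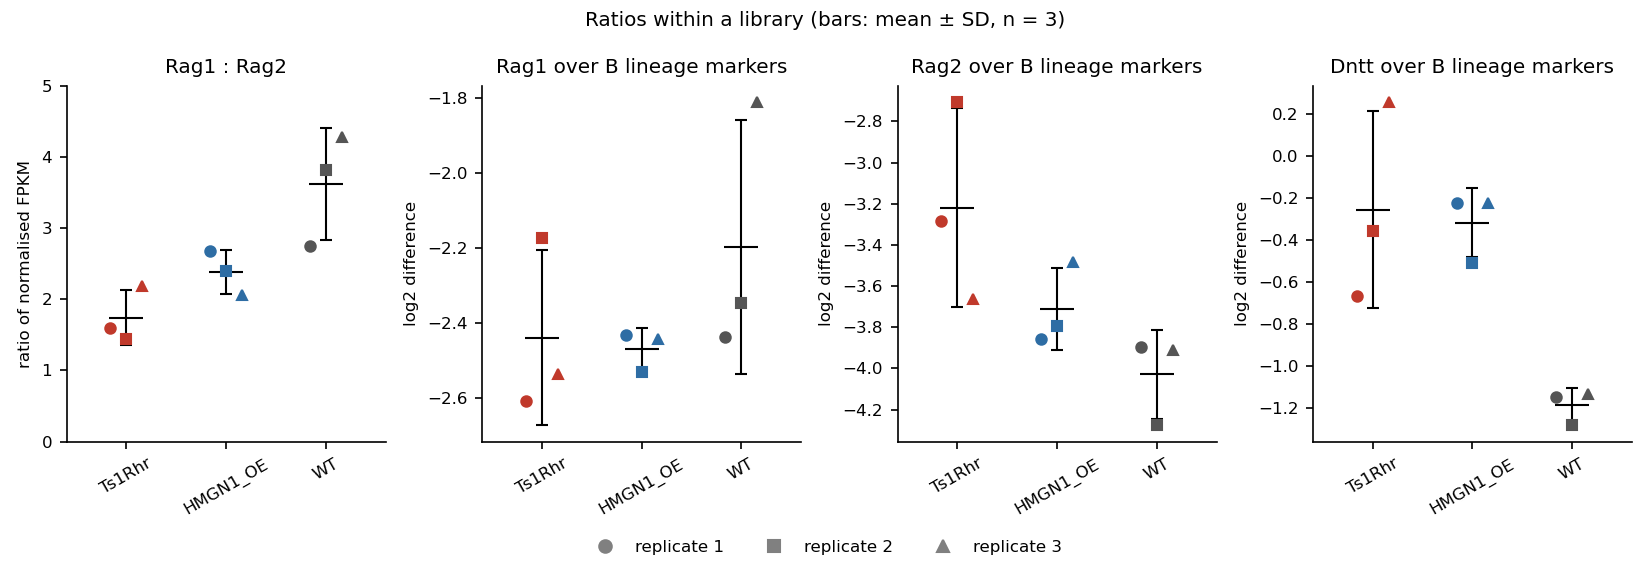
The first panel shows the ratio of Rag1 to Rag2 normalised FPKM in each library, and the others show log2 Rag1, Rag2 and Dntt minus the mean log2 of the 11 B lineage markers, with mean ± SD (n = 3) as bars. The Rag1 to Rag2 ratio is 1.45 to 2.19 in Ts1Rhr and 2.75 to 4.29 in WT, and Dntt is above WT in all mutant libraries after division by the markers.

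Dntt had the highest level of the 10 genes in every library. It stood at 100.5, 98.7 and 182 FPKM in Ts1Rhr, at 139, 137 and 157 in HMGN1_OE, and at 54.3, 61.0 and 40.4 in WT. No mutant library came down to the WT range, and Ts1Rhr replicate 3, the only library that was male by Ddx3y and Xist, lay far above the others of its group. The mean was 127 ± 47.5 in Ts1Rhr and 51.9 ± 10.5 in WT, 2.38-fold (1.57 to 3.60, limma, adjusted p = 0.0565). In the raw table Dntt rose, with 133 ± 56.9 FPKM in Ts1Rhr and 50.7 ± 6.71 in WT and a fitted ratio of 2.50 (adjusted p = 0.0320). Without Ts1Rhr replicate 3 the log2 fold change was 0.96 on normalised values (adjusted p = 0.149) and 0.99 on raw values (adjusted p = 0.0767), against 1.25 and 1.32 with it. The raw call was also lost without Ts1Rhr replicate 2 (1.48, adjusted p = 0.106), WT replicate 1 (1.23, 0.144) or WT replicate 3 (1.32, 0.0919), and the normalised call was made without HMGN1_OE replicate 1 or 2 (adjusted p = 0.0494 and 0.0461).

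In HMGN1_OE the 3 Dntt values lay close together, with a mean of 144 ± 11.4 FPKM. The WT mean was 51.9 ± 10.5, and the fitted ratio was 2.81 (1.86 to 4.26), or 1.49 ± 0.28 on the log2 scale (SE; limma, adjusted p = 0.0602). It was the largest normalised fold change of the 10 genes in the 3 comparisons. On raw values it was 2.51-fold (adjusted p = 0.135). The call was made without Ts1Rhr replicate 3 (adjusted p = 0.0368), a library that enters this comparison only through the shared spread. Both mutant comparisons use the same WT libraries, so the high Dntt and Rag2 values in the 2 are not separate observations of the WT level.

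**Figure D3:**
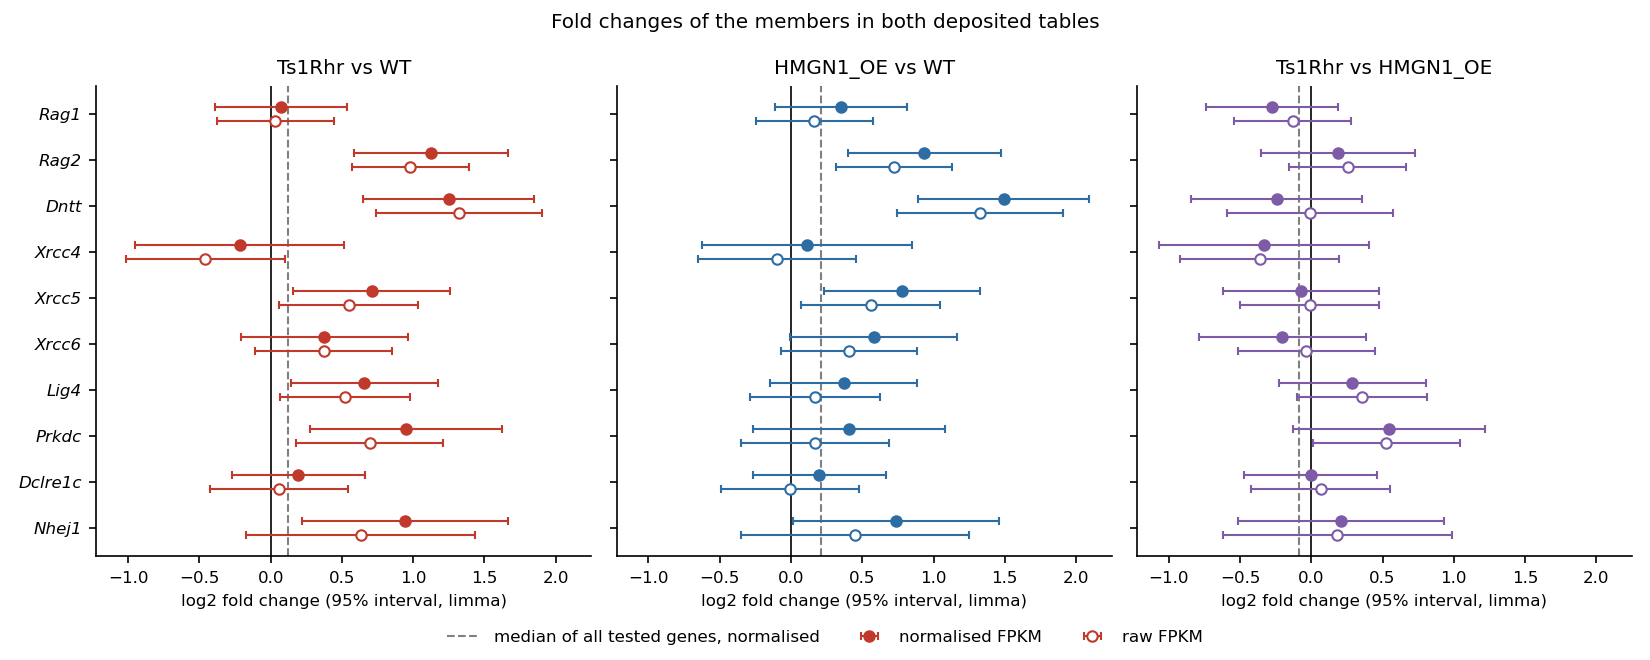
Log2 fold changes of the 10 genes with 95% intervals from limma in the 3 comparisons, from normalised (filled) and raw (open) FPKM, with the median of all tested genes on normalised values as a dashed line. Rag2 and Dntt lie farthest to the right against WT in both mutants, Rag1 is near the dashed line in Ts1Rhr, and Xrcc4 is the only gene left of 0 in Ts1Rhr against WT.

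The Ku heterodimer, made of the products of Xrcc6 (Ku70) and Xrcc5 (Ku80), slides onto DNA ends before any other joining factor. Xrcc5 had 14.8, 10.4 and 11.3 FPKM in Ts1Rhr, 10.9, 14.0 and 13.2 in HMGN1_OE, and 5.42, 9.50 and 7.75 in WT. Every mutant library was above every WT library in both tables. The fitted ratio to WT was 1.63 in Ts1Rhr (limma, adjusted p = 0.165) and 1.72 in HMGN1_OE (adjusted p = 0.302), and 1.46 and 1.47 on raw values. Xrcc6, the most abundant end-joining transcript, had 51.1, 30.2 and 42.7 FPKM in Ts1Rhr, 36.5, 52.0 and 52.8 in HMGN1_OE, and 30.6, 41.3 and 23.7 in WT. Those ranges overlapped, with adjusted p = 0.457 in Ts1Rhr and 0.426 in HMGN1_OE. Desi1 overlaps Xrcc6 on the other strand, with 20.7 ± 1.66 FPKM in Ts1Rhr, 19.9 ± 6.56 in HMGN1_OE and 14.5 ± 3.75 in WT. Although the Ku proteins act as a pair, Xrcc5 stood at 0.177 to 0.344 of Xrcc6 over the 9 libraries, and the groups overlapped (log2 difference of Ts1Rhr from WT 0.33, exact permutation p = 0.3).

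Prkdc encodes the catalytic subunit of the DNA-dependent protein kinase, which Ku recruits. It had 8.53, 7.10 and 4.39 FPKM in Ts1Rhr, 3.44, 5.12 and 4.86 in HMGN1_OE, and 2.54, 3.78 and 3.83 in WT. The Ts1Rhr libraries lay above those of WT, 1.93-fold by the fit (1.21 to 3.08, limma, adjusted p = 0.139; 1.62-fold and 0.0785 on raw values), while the HMGN1_OE libraries overlapped with WT (1.32-fold, adjusted p = 0.618). Dclre1c, whose product Artemis opens the hairpins once that kinase is bound, was nearly flat at 12.6, 14.6 and 12.3 FPKM in Ts1Rhr, 15.1, 12.4 and 12.2 in HMGN1_OE, and 11.8, 10.6 and 12.0 in WT. Both mutants sat barely above WT on normalised values and overlapped with it on raw values. The fitted ratio was 1.14 in Ts1Rhr (0.828 to 1.58, adjusted p = 0.647) and 1.148 in HMGN1_OE (adjusted p = 0.723), a log2 value of 0.20 beside the 0.21 of the median gene. Suv39h2 overlaps Dclre1c on the other strand.

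The ligase IV complex joins the ends, with Xrcc4 as the scaffold that stabilises the ligase and Nhej1 (XLF) as a bridging factor. Lig4 had 16.02, 14.7 and 16.2 FPKM in Ts1Rhr, 9.46, 13.0 and 17.1 in HMGN1_OE, and 9.17, 10.3 and 10.3 in WT. The Ts1Rhr libraries were tightly grouped above WT, at 15.6 ± 0.816 FPKM in Ts1Rhr and 9.92 ± 0.651 in WT, 1.58-fold (limma, adjusted p = 0.172), and HMGN1_OE overlapped with WT (1.29-fold, adjusted p = 0.558). On raw values the spread was wider, at 15.2 ± 2.06 FPKM in Ts1Rhr and 10.6 ± 1.84 in WT. The fitted raw ratio was 1.44 (limma, adjusted p = 0.118), again without overlap. Nhej1, the lowest of the 10 on average, had 4.19, 4.14 and 4.11 FPKM in Ts1Rhr, 5.56, 3.29 and 2.54 in HMGN1_OE, and 1.82, 2.49 and 2.21 in WT. Both mutants were above WT without overlap on normalised values, 1.93-fold in Ts1Rhr (adjusted p = 0.163) and 1.67-fold in HMGN1_OE (adjusted p = 0.418), where replicate 1 lay farthest above WT. On raw values Nhej1 was 1.55-fold in Ts1Rhr without overlap (limma, adjusted p = 0.262). In HMGN1_OE it overlapped with WT on raw values (1.365-fold, limma, adjusted p = 0.569).

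Xrcc4 did not share the higher Ts1Rhr levels of its partners, with 5.51, 2.53 and 3.996 FPKM in Ts1Rhr, 3.12, 6.23 and 5.70 in HMGN1_OE, and 5.11, 4.65 and 3.69 in WT. The groups overlapped, and the fitted log2 difference was -0.22 in Ts1Rhr (limma, adjusted p = 0.757) and 0.11 in HMGN1_OE (adjusted p = 0.916). On raw values all Ts1Rhr libraries lay below those of WT, the highest at 4.27 and the lowest WT library at 4.28 FPKM (log2 fold change -0.46, adjusted p = 0.243; 18.5% of all genes lay lower in that way). Tmem167 overlaps Xrcc4 on the other strand. Within a library, Xrcc4 stood at 0.344, 0.172 and 0.247 of Lig4 in Ts1Rhr, at 0.330, 0.481 and 0.334 in HMGN1_OE, and at 0.558, 0.452 and 0.358 in WT. The Ts1Rhr ratios were all below the WT ratios, with 0.344 in Ts1Rhr and 0.358 in WT at the nearest (log2 difference -0.87 ± 0.34 SE, exact permutation p = 0.1, the smallest possible). The HMGN1_OE ratios overlapped with those of WT (-0.26, exact permutation p = 0.3).

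Counted over the 10 genes, 7 had all Ts1Rhr libraries above all WT libraries on normalised values (Rag2, Dntt, Xrcc5, Lig4, Prkdc, Dclre1c and Nhej1), where 21.7% of all tested genes did, and 6 on raw values (19.1%). In HMGN1_OE 6 lay wholly above WT (Rag1, Rag2, Dntt, Xrcc5, Dclre1c and Nhej1), beside 16.6% of all genes, and on raw values 3 did (Rag2, Dntt and Xrcc5), beside 9.81%. Rag2, Dntt and Xrcc5 were the genes whose mutant libraries all lay above WT in both tables and both mutants.

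Per length, the mean levels over the 9 libraries ran from 107.7 FPKM for Dntt through 40.1 for Xrcc6 and 28.3 for Rag1 to 3.37 for Nhej1. Lig4 (12.9), Dclre1c (12.6), Rag2 (12.3) and Xrcc5 (10.8) lay close together, and their ranges over the libraries overlapped. Prkdc (4.84), Xrcc4 (4.505) and Nhej1 formed the lowest group, and their ranges overlapped too.

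Ts1Rhr was also set against HMGN1_OE. Both genotype and strain differ between these groups and cannot be told apart. The Hmgn1 row was not matched either, at 125 to 127 raw FPKM in Ts1Rhr and 71.9 to 77.2 in HMGN1_OE, though it may not count all of the overexpressed product. None of the 10 genes was called on either table, nor was any of the 10878 genes (0% called in limma). On normalised values 475 genes, or 4.37%, had an unadjusted p under 0.05, none of them a member, and on raw values 963 had, with Prkdc among them. Rag2 had a ratio of 1.14 (95% interval 0.785 to 1.66), Dntt of 0.846 (0.558 to 1.28) and Rag1 of 0.826 (0.600 to 1.14). Rag1 was lower in each Ts1Rhr library than in each HMGN1_OE library on normalised values, with 26.2 to 28.1 FPKM in Ts1Rhr and 30.02 to 33.8 in HMGN1_OE, where 6.6% of all genes were, and overlapped on raw values. Prkdc had the largest difference, at 6.67 ± 2.10 FPKM in Ts1Rhr and 4.47 ± 0.908 in HMGN1_OE, 1.46-fold (0.915 to 2.33, adjusted p = 0.989). On raw values its libraries did not overlap (6.89% of all genes lay higher in that way; 1.44-fold, adjusted p = 0.554).

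Because the cultures held myeloid cells, each gene was also read relative to the mean log2 level of the 11 B lineage markers in the same library. The end-joining genes are used by other cells too, so for them this scale does not take out the share of such cells. Dntt stayed above WT on this scale, with -0.67, -0.36 and 0.26 in Ts1Rhr, -0.22, -0.51 and -0.22 in HMGN1_OE, and -1.150, -1.29 and -1.14 in WT. No mutant library reached the WT range. The difference from WT was 0.93 ± 0.28 (SE) in Ts1Rhr and 0.87 ± 0.11 in HMGN1_OE. The exact permutation test gave p = 0.1 for each, the smallest possible among the 10 genes examined. Raw values gave 0.88 and 0.85, again without overlap. Adjusted over the 10 genes, an exact permutation p of 0.1 became 0.333 in Ts1Rhr and 0.4 in HMGN1_OE against WT. Between the mutants it became 0.333. On raw values it became 0.5 in Ts1Rhr and 0.25 in HMGN1_OE against WT. This test could therefore not pass the threshold for any gene on this scale. The share of all genes that separate in this way is not given here. Rag2 lay 0.81 ± 0.30 above WT in Ts1Rhr and 0.32 ± 0.17 in HMGN1_OE without overlap (exact permutation p = 0.1 each), but on raw values the groups overlapped in both (0.54, p = 0.2, and 0.24, p = 0.3, exact permutation test). Rag1 overlapped with WT, with differences of -0.24 in Ts1Rhr (exact permutation p = 0.5) and -0.27 in HMGN1_OE (p = 0.2, exact permutation test), and on raw values HMGN1_OE lay below WT (-0.32, exact permutation p = 0.1). Of the end-joining genes, only Nhej1 in Ts1Rhr cleared WT on normalised values (0.63, exact permutation p = 0.1), and it overlapped on raw values (0.19). On raw values Xrcc4 lay below WT in Ts1Rhr (-0.90) and in HMGN1_OE (-0.58), and Prkdc lay below WT in HMGN1_OE (-0.31, exact permutation p = 0.1 for each of the 3). These overlapped on normalised values. Against HMGN1_OE, the Ts1Rhr libraries were higher without overlap for Xrcc5 (0.23), Lig4 (0.59) and Prkdc (0.85) on normalised values (exact permutation p = 0.1 each) and overlapped on raw values. Of the markers themselves, 3 of 11 B lineage markers rose in Ts1Rhr against WT on raw values and none on normalised values, with a median of 0.39 and 0.25.

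Markers of other cell types also differed between the groups. All 20 tested myeloid markers had a negative log2 fold change in Ts1Rhr against WT, with a median of -0.89 (0 fell on normalised and 6 on raw values), and all 20 did in HMGN1_OE, with a median of -0.42 (0 fell). The 6 stromal markers summed to 4.197 to 12.4 raw FPKM in Ts1Rhr, 3.06 to 11.4 in HMGN1_OE and 54.5 to 89.4 in WT, and on normalised values 4 of the 4 tested fell in Ts1Rhr and 3 in HMGN1_OE (4 and 1 on raw values). Their part in the Rag2 and Dntt values was not tested beyond the ratio to B lineage markers. T cells are the other lineage that uses these 3 lymphoid genes. Of the 13 T and NK cell markers, the 11 under a mean of 1 raw FPKM included Cd3d, Cd3e, Cd3g and Bcl11b, and the 2 expressed were the kinase gene Lck and the surface marker gene Thy1. Lck averaged 21.7 ± 5.77 raw FPKM in Ts1Rhr, 25.8 ± 7.10 in HMGN1_OE and 17.4 ± 3.96 in WT. Thy1 had 6.58, 5.76 and 5.14 raw FPKM in Ts1Rhr, 4.18, 19.9 and 14.8 in HMGN1_OE, and 8.55, 6.53 and 8.46 in WT. Neither was called, both were above 0 in HMGN1_OE against WT (median log2 fold change 0.71, and 0.51 on raw values), and their part in the Dntt values was not tested. Of 3 early progenitor markers, Flt3 was under 1 raw FPKM and Kit, the stem cell factor receptor that pro-B cells also carry, rose in Ts1Rhr. Cd34, the other of the 2 tested, went the other way. Its log2 fold change against WT was below 0 in both mutants and was not called. Kit averaged 9.37 ± 0.671 FPKM in Ts1Rhr, 8.07 ± 2.15 in HMGN1_OE and 3.06 ± 0.753 in WT, the same grouping as Dntt, and its part in the Dntt values was not tested. The 6 later B cell markers summed to 47.1 to 66.4 raw FPKM in Ts1Rhr, 53.6 to 97.3 in HMGN1_OE and 64.2 to 78.1 in WT, and the 4 dendritic cell markers to 35.1 to 39.2 in Ts1Rhr, 33.7 to 59.3 in HMGN1_OE and 50.3 to 61.4 in WT.

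Other genes of the pathway were described by list, without a test of the list. Of all tested genes, 59.9% were above 0 in Ts1Rhr and 72.7% in HMGN1_OE on normalised values. In Ts1Rhr against WT, 0.57% of all genes were called on normalised values and 8.85% on raw values (467 higher, 496 lower). On raw values the medians of the 5 lists ran from 0.20 to 0.69 in Ts1Rhr and from 0.27 to 0.50 in HMGN1_OE, beside 0.01 over all genes. Of 17 end-joining partners and break-response genes, 15 had a positive log2 fold change in Ts1Rhr and 15 in HMGN1_OE, with medians of 0.34 and 0.49 and none called. Rif1, which protects broken ends from resection, had 30.1, 35.7 and 22.6 FPKM in Ts1Rhr, 16.1, 24.6 and 26.4 in HMGN1_OE, and 13.5, 16.03 and 14.9 in WT. Its Ts1Rhr libraries cleared WT (log2 fold change 0.97, limma, adjusted p = 0.0800), and on raw values it rose (0.90, adjusted p = 0.0330). Rnf168, a ubiquitin ligase that marks chromatin at breaks, was at 0.76 (adjusted p = 0.0996), and in HMGN1_OE Tdp1 and H2afx were at 0.74 and 0.77 (adjusted p = 0.324 and 0.337). Polm, a polymerase related to terminal transferase, was at -0.44 in Ts1Rhr (adjusted p = 0.395) and 0.02 in HMGN1_OE (0.981).

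The backup route of alternative end joining had 9 genes, with medians of 0.65 in Ts1Rhr and 0.51 in HMGN1_OE and none called on normalised values. In Ts1Rhr 8 of the 9 were above 0, and Polq had the largest value (1.23). Polq averaged 5.12 ± 0.653 FPKM in Ts1Rhr, 4.36 ± 1.36 in HMGN1_OE and 2.29 ± 0.878 in WT. On raw values 5 rose in Ts1Rhr (Lig1, Lig3, Parp1, Rbbp8 and Fen1, 0.52 to 0.85 on the log2 scale) and 1 fell (Ercc1, -0.73, adjusted p = 0.0374). Rbbp8, which starts end resection, was at 0.73 on normalised values in Ts1Rhr (limma, adjusted p = 0.143), and Parp1, a break sensor, at 0.53 in HMGN1_OE (adjusted p = 0.434). Lig1, a ligase that also works at replication forks, averaged 83.0 ± 7.12 FPKM in Ts1Rhr, 78.3 ± 2.16 in HMGN1_OE and 48.4 ± 9.56 in WT. The 5 recombinase cofactors and turnover genes were positive in both mutants, with medians of 0.55 and 0.63. Vprbp, part of a ubiquitin ligase that binds RAG1, was at 0.64 in Ts1Rhr (adjusted p = 0.197). Hmgb2, a DNA-bending protein that helps the recombinase bind, averaged 380 ± 65.7 FPKM in Ts1Rhr, 448 ± 93.4 in HMGN1_OE and 245 ± 66.0 in WT (adjusted p = 0.263 and 0.320), and rose with Hmgb1 on raw values in Ts1Rhr. Of 12 replication and mitosis genes, 11 were positive in Ts1Rhr and 12 in HMGN1_OE, with medians of 0.62 and 0.67. None was called on normalised values, where Mki67 and Ccnb1 had the largest values in Ts1Rhr (0.69 and 0.67, adjusted p = 0.203 and 0.171) and Mcm3 and Ccna2 in HMGN1_OE (0.69 and 0.79, adjusted p = 0.328 and 0.288). On raw values Top2a, Mcm2, Mcm3, Mcm5, Mcm6, Mcm7, Ccna2 and Ccnb1 rose in Ts1Rhr, by 0.61 to 0.83 on the log2 scale. The share of dividing cells in each culture was not tested.

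Among 26 genes listed as regulators of Rag1, Rag2 or Dntt, 22 were positive in Ts1Rhr and 23 in HMGN1_OE, with medians of 0.50 and 0.46. Most are transcription factors, but the list also holds Gadd45a and the inhibitors Id2 and Id3, so the count mixes activators and inhibitors. Pax5 and Ebf1 are also among the B lineage markers. Erg, an ETS factor of early B cell development that lies in the triplicated segment, rose in Ts1Rhr, with 25.6, 20.1 and 24.04 FPKM there, 10.8, 16.5 and 19.2 in HMGN1_OE, and 8.15, 9.09 and 6.83 in WT (log2 fold change 1.54, limma, adjusted p = 0.0110). Its HMGN1_OE libraries were also above WT but not called (0.92, adjusted p = 0.258). The count of list genes called was 0 without Ts1Rhr replicate 2, Ts1Rhr replicate 3 or WT replicate 3. On raw values, where 22 listed genes were called, it was 0 without Ts1Rhr replicate 2, Ts1Rhr replicate 3, WT replicate 1 or WT replicate 3. Erg, Lef1, Runx1, Ets1 and Myb were the raw calls here, all higher in Ts1Rhr. Lef1 had 145, 203 and 180 FPKM in Ts1Rhr, 187.5, 175 and 170.0 in HMGN1_OE, and 86.8, 96.8 and 81.4 in WT (0.98 and 1.01, adjusted p = 0.0772 and 0.211). Id2, an inhibitor of E2A proteins, was at -1.35 in Ts1Rhr (adjusted p = 0.160) and -0.29 in HMGN1_OE (0.821), and Foxo1, an activator of the Rag locus, at 0.52 in both (adjusted p = 0.224 and 0.393).

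Between Ts1Rhr and HMGN1_OE no listed gene was called in either table (limma, adjusted p = 0.989 on normalised values for each gene named here). Among genes with a mean of at least 5 raw FPKM, the largest log2 differences per list were Polm (-0.46) and Rif1 (0.41), Ercc1 (-0.82) and Rbbp8 (0.43), Hmgb1 (-0.26) and Hmgb2 (-0.23), Id2 (-1.06) and Id3 (-0.92), and Pcna (-0.35) and Cdk1 (-0.25).

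**Figure D4:**
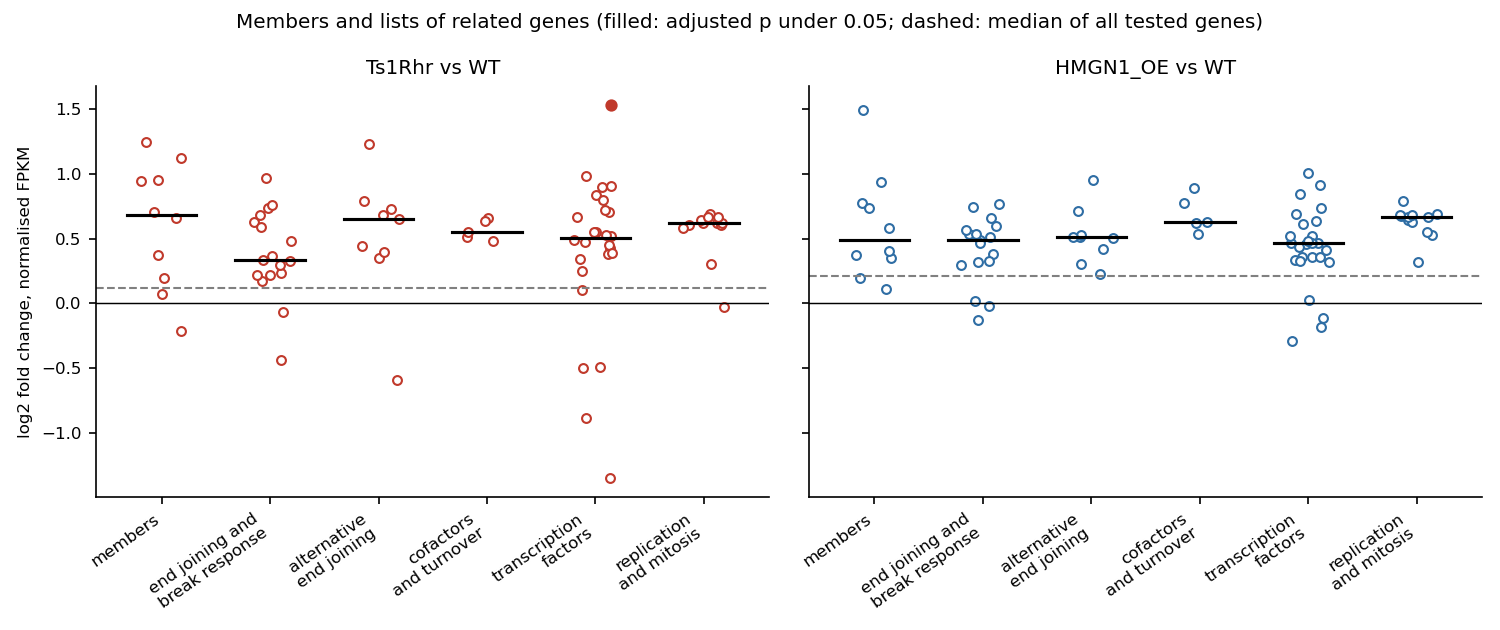
Log2 fold changes of the 10 genes and of the 5 lists of related genes on normalised FPKM, with each list's median as a bar, genes with an adjusted p under 0.05 filled and the median of all tested genes dashed. The bars lie above the dashed line in both mutants, from 0.34 to 0.68 in Ts1Rhr and from 0.46 to 0.67 in HMGN1_OE, and Erg is the single filled point.

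The genes whose raw levels followed these 3 most closely over the 9 libraries were named by Pearson correlation of log2 values among 8238 genes with a mean of at least 5 raw FPKM, as a description that shares library and group. They were Zfp207, Brip1 and Eed for Rag2 (r = 0.963, 0.959 and 0.954), Treml2, Agbl5 and Tle3 for Dntt (0.969, 0.967 and 0.959), and Rps27l, Zfp652 and Hip1r for Rag1 (0.912, 0.883 and 0.879). Rag1 correlated with its neighbour Rag2 at 0.238, while Rag2 and Dntt reached 0.772 and Rag1 and Dntt 0.437. Among the 8238 genes, Dntt ranked only 928 by likeness to Rag2, and Rag2 ranked 576 by likeness to Dntt. Many other genes thus followed each of the 2 more closely. In Treml2, the gene most like Dntt, the means were 21.5 ± 3.57 raw FPKM in Ts1Rhr, 20.8 ± 2.71 in HMGN1_OE and 13.9 ± 2.09 in WT.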

How the data were processed

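RNA libraries of 9 cultures were analysed. The authors deposited 2 FPKM tables, 1 raw and 1 further normalised, with 1 column per library. Per the labels' protocols, ERCC spike-ins (1 µl of a 1:1000 dilution) were added to RNA of equal cell numbers for normalisation per cell. No source used here describes how the normalised FPKM were computed. The submitters' processing notes name HISAT, Cufflinks 2.0.0 and mm9. Read counts are not part of FPKM, so the depth is unknown and tests ran on log values.

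Of 23398 rows, 92 spike-ins and 27 rows with dates for symbols were left out, and 10878 genes with a mean of at least 1 raw FPKM were tested. Normalised values, which stay near 0.1 where raw FPKM are 0, entered as log2 and raw values as log2(FPKM + 0.1), which understates changes of low genes. Above that floor normalised and raw values differ by an amount that varies with library and level. In WT replicate 1, Id2 had 2560 normalised and 1688 raw FPKM, and Prkdc had 2.54 and 2.66. Differences were tested two-sided in limma 3.58.1 under R 4.3.3, in a single fit of the 9 libraries whose spread follows the mean level. Benjamini-Hochberg adjustment ran over all tested genes, with a threshold of 0.05, and the code was tested on simulated data. Exact permutation tests used scipy 1.17.1. Equal replicate numbers showed no sign of pairing, though so few libraries cannot exclude it, and the main fit had no block. Alternatives were another table, pseudocount (1), filter, scaling, a replicate block, 2 groups only and leaving out each library. The named genes were the 10 members and, per list, every gene called or else the 2 largest changes at a mean of at least 5 raw FPKM. Raw calls were named too, and Polm against WT, Polq, Foxo1, Id2 in HMGN1_OE and the levels of Treml2, Kit, Lck and Thy1 were picked for their roles or ranks after values were seen. Members and lists were chosen with earlier results of these data known. Gene order and overlaps came from GENCODE M21 and promoters from RefSeq on GRCm38.p6, not the files' build, so coordinates are given with sequences only. Paxx and Spi1 were not analysed here.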

Additional observations from a re-analysis of the deposited data

How the results depend on the processing

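The genes called in Ts1Rhr against WT numbered 62 (46 higher, 16 lower), and the count followed the table and scaling. It was 963 on raw FPKM (467 higher, 496 lower), 940 on raw FPKM with a pseudocount of 1, 20 without the filter (4 and 16), 693 with libraries shifted to the same median (251 and 442), 267 with the 2 groups alone (204 and 63), and 42 with 1 spike-in factor (18 and 24). For HMGN1_OE against WT, where 10 were called, these counts were 4, 19 and 20 for the first 3 alternatives and 18 with the 2 groups alone. The members called in Ts1Rhr against WT were 0, and 2 on raw FPKM with either pseudocount, with a mean of at least 5 raw FPKM, with a common median and with 2 groups. Listed pathway genes called numbered 1, and 22 on raw FPKM with either pseudocount, 0 without the filter, 5 with a common median and 2 with 2 groups.

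Rag2 in Ts1Rhr against WT passed at log2 fold changes of 0.98 (raw, adjusted p = 0.0309), 0.90 (pseudocount 1), 1.13 (mean of at least 5, and 2 groups) and 0.99 (common median), and Dntt at 1.32, 1.31, 1.25 and 1.12 (limma). Over all alternatives to the table, filter, scaling, block and groups, adjusted p ran from 0.0301 to 0.152 for Rag2 and from 0.0314 to 0.169 for Dntt. Neither passed without the filter or with 1 spike-in factor (Rag2 0.127, Dntt 0.0509). Dntt in HMGN1_OE passed with a mean of at least 5 (1.49, 0.0392), so 1 member was called. Rag1 in Ts1Rhr reversed with a common median (-0.0593). Xrcc4 in HMGN1_OE reversed on raw values (-0.10), with a pseudocount of 1 (-0.0810) and with a common median (-0.0932), and Dclre1c likewise (-0.0068, -0.00436 and -0.0080). Dclre1c in Ts1Rhr against HMGN1_OE reversed at 0.0661, 0.0597 and 0.0677. The cause was not tested.

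Libraries with equal replicate numbers correlated at -0.132 to 0.156 after removal of group means, and those with unlike numbers at -0.284 to 0.211. No pairing was seen, but so few libraries cannot exclude it. The replicate block gave 119 genes called in Ts1Rhr (72 higher, 47 lower), 314 on raw FPKM, 15 in HMGN1_OE, 4 on raw FPKM, and 5 in Ts1Rhr against HMGN1_OE, where 0 were called without it. The block called 2 members in Ts1Rhr on either table (Rag2 at 1.13 and 0.98, Dntt at 1.25 and 1.32), 1 in HMGN1_OE (Dntt, 1.49) and 7 listed genes on raw FPKM. With the block on raw FPKM Xrcc4 in HMGN1_OE was at -0.10 and Dclre1c at -0.0068, and at 0.0661 in Ts1Rhr against HMGN1_OE.

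Leaving out 1 library, on either table (the raw runs and the raw block were chosen after seeing the data), gave 1 to 1276 genes in Ts1Rhr against WT, 0 to 17 in HMGN1_OE against WT and 0 to 6 between them, with 0 to 2, 0 to 1 and 0 members. Raw calls were fewest, at 1, without Ts1Rhr replicate 3 or WT replicate 1. Listed genes ran from 0 to 27. In Ts1Rhr against WT the log2 fold change ran from -0.17 to 0.18 for Rag1, 0.81 to 1.32 for Rag2, 0.96 to 1.49 for Dntt, -0.60 to 0.08 for Xrcc4 and -0.0276 to 0.24 for Dclre1c. In HMGN1_OE it ran from -0.0358 to 0.45 for Rag1, 1.19 to 1.62 for Dntt, -0.19 to 0.42 for Xrcc4, -0.0455 to 0.59 for Lig4, -0.0535 to 0.58 for Prkdc, -0.24 to 0.25 for Dclre1c and -0.0422 to 0.99 for Nhej1. Between the mutants it ran from -0.53 to 0.17 for Dntt, -0.22 to 0.0836 for Xrcc5, -0.38 to 0.18 for Xrcc6, -0.12 to 0.30 for Dclre1c and -0.10 to 0.67 for Nhej1. The depth behind the FPKM is unknown.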
